A study of Caenorhabditis elegans with 6 samples.

Results

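The Str superfamily of Caenorhabditis elegans holds G-protein-coupled chemoreceptor genes named srd, srh, sri, srj, srm, srn and str. In the RefSeq annotation 723 genes carry such a symbol, 587 of them protein-coding and 136 pseudogenes, and the count tables held 657 transcript records of 577 of these genes. The genes described here are the 137 records, 1 per gene, that reached at least 10 counts in 3 or more of 6 libraries, out of 50832 records in all. These counts chose the members without regard to group. The other 520 Str superfamily records stayed below the limit, and 170 of them had 0 counts in every library.

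Receptors of this kind sit mostly on the cilia of chemosensory neurons, where they bind odours, pheromones and other small molecules and signal through heterotrimeric G proteins. A single sensory neuron of the worm usually expresses many receptor genes, and a given receptor gene is often transcribed in a few cells of the whole animal. Most family members lie in clusters formed by gene duplication, and for most the ligand is not known. Among the members 86 lay on chromosome V, 27 on II, 14 on IV, 6 on I, 2 on III and 2 on X, and by subfamily they were 56 srh, 29 str, 22 sri, 18 srd, 7 srj, 4 srm and 1 srn gene.

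The libraries came from whole starved first-stage (L1) larvae, 3 from the double mutant spr-5; met-2 and 3 from the wild-type strain N2. The double mutant carries spr-5(by101) on chromosome I and met-2(n4256) on chromosome III. SPR-5 removes methyl groups from histone H3, and MET-2 adds them to lysine 9 of that histone. Both groups were fed bacteria of strain HT115 and hatched without food in M9 buffer, and the comparison was made to find genes expressed differently in the progeny of the double mutant. Since the labels do not say that replicates were separate cultures, p-values cover the spread between these libraries alone, which may be technical. Library totals ranged from 17062557 to 25368364 counts in the double mutant and from 20010959 to 22014739 in N2. Counts of spr-5 were 123 ± 6.58 CPM (counts scaled to library size by TMM) in the double mutant and 53.8 ± 10.7 CPM in N2, and those of met-2 were 82.7 ± 4.04 CPM in the double mutant and 111 ± 9.36 CPM in N2 (SD, n = 3 each). These are counts over whole transcripts and cannot check either allele.

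Chemoreceptor transcripts were rare in these larvae. All members together held 5387, 4746 and 7708 counts in spr-5; met-2 replicates 1, 2 and 3, and 3711, 3472 and 4593 counts in those of N2. Over all libraries the mean level of a member ranged from 0.391 to 27.5 CPM with a median of 0.887, and 76 of the 137 averaged below 1 CPM. Tests were made with edgeR's quasi-likelihood test over 14557 records, with adjustment over all of them and a threshold of 0.05. The edgeR filter on low counts kept 130 members, while srh-35, srh-3, str-84, sri-28, sri-48, sri-78 and srd-1 were not tested. The tested members had a median mean level of 0.943 CPM, against 10.6 CPM over all tested records.

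At the limit of the rule, str-84 had 2, 10 and 12 counts in spr-5; met-2 and 11, 8 and 9 in N2, and srh-3 had 3, 0 and 10 against 22, 7 and 11. The next member, sri-78, had 14, 2 and 12 against 6, 10 and 9 counts. Just outside it, str-261 had 8, 8 and 21 counts in the double mutant against 9, 6 and 13 in N2. The other records nearest to the limit from below were srh-148, with 9, 9 and 21 against 9, 3 and 13, and srh-125, with 2, 2 and 18 against 6, 9 and 23 counts.

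A small number of receptor genes were much higher in spr-5; met-2, while most members did not pass the test. Of the 130 tested members 14 rose and 7 fell, which is 16.2% against 25.9% of all tested records. These shares differ in depth, with a median mean level of 0.943 CPM for tested members and 10.6 CPM for all tested records. No share at a matched level was computed. The risers made up 10.8% of tested members, while 14.3% of all tested records were called as higher. The fallers made up 5.38%, while 11.7% of all tested records were called as lower. At least 4-fold higher were 11 of the risers, beside 5.83% of all records. At least 4-fold lower were srj-24 and srh-56, beside 1.2% of all records. Of these 11 risers only 3 had 10 or more counts in all libraries. The other 8 reached 10 counts in every spr-5; met-2 library but not in every N2 library, and both fallers the reverse. Such members passed the rule in part or in whole through the group where they were higher. The median log2 fold change of the double mutant over N2 was -0.04 for the members and -0.01 for all tested records. In whole-animal RNA, fewer cells of a type and less RNA per cell cannot be told apart. Read with the replicate number as a block, the same table called 15 members as higher and 11 as lower, and of all tested records 18.9% as higher and 16.3% as lower.

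**Figure D1:**
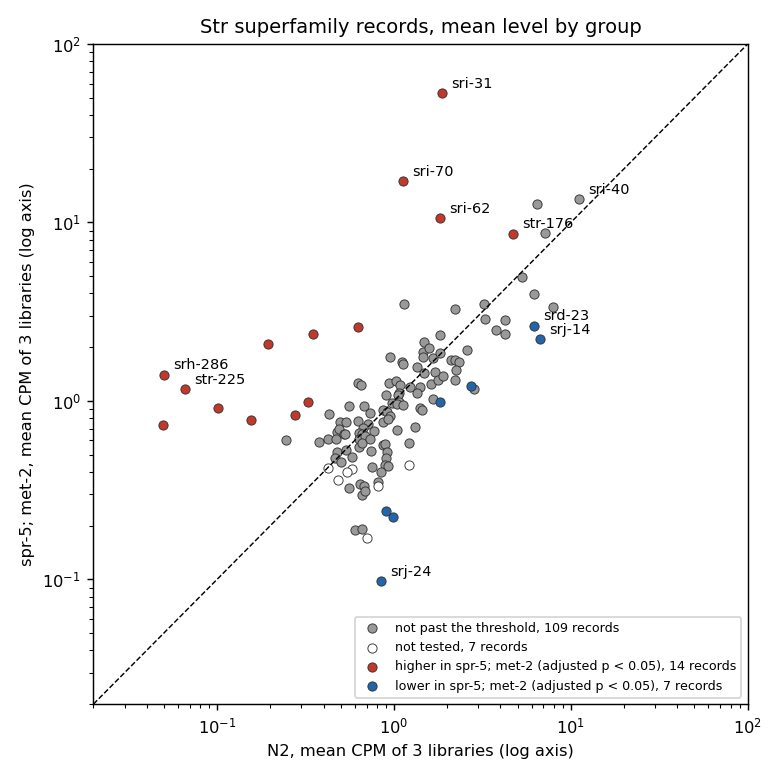
Mean CPM of each of the 137 Str superfamily records in spr-5; met-2 (vertical, log axis) against N2 (horizontal, log axis), each mean over 3 libraries, with colours for the edgeR call and a dashed line of equal level. Most records lie near the line, and sri-31, sri-70 and sri-62 stand above it at 53.1, 16.96 and 10.54 CPM in spr-5; met-2.

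How the members passed the rule limits what these counts can show. A member that reached 10 counts only in the libraries of 1 group was chosen in a way that favours a difference. In all, 10 members reached 10 counts in no N2 library, and 9 of them were among the 14 risers. In no spr-5; met-2 library did 4 members reach 10 counts, and 2 of them were among the 7 fallers. The 64 members with 10 or more counts in all libraries gave 4 risers, sri-31, sri-70, sri-62 and str-176, and 4 fallers, srj-14, srd-23, str-97 and str-268.

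The riser with the highest level was sri-31, a gene of the sri subfamily on chromosome II. It had 53.1, 54.6 and 51.6 CPM in spr-5; met-2 replicates 1, 2 and 3, against 2.03, 1.68 and 1.90 CPM in N2. The 3 mutant libraries stood close together, and no value of one group came near the other. The log2 fold change was 4.82 ± 0.15 (SE, adjusted p = 6.49e-06 in edgeR), and it lay between 4.74 and 5.05 over 15 alternative settings. The record supplied 19.1%, 20.8% and 18.8% of all member CPM in the double-mutant libraries, against 0.997%, 0.979% and 0.827% in N2.

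The summed level of the family was higher in the double mutant with sri-31 and overlapped without it. Summed over the 137 members, CPM came to 278, 262 and 274 in spr-5; met-2 and to 204, 172 and 230 in N2, a log2 ratio of group means of 0.43. Without sri-31 the sums were 225.3, 207 and 223 CPM in the double mutant and 202, 170 and 228.1 CPM in N2, the groups overlapped and the log2 ratio was 0.13. This alternative was chosen after the data were seen.

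Per kilobase of exon, which allows levels to be compared between genes, sri-31 moved to the top of the family. It stood at 51.6 ± 1.46 RPKM (CPM per kilobase of exonic length; SD, n = 3) in spr-5; met-2, rank 1 of 137, against 1.82 ± 0.172 RPKM in N2, rank 22. In N2 the first rank belonged to sri-40, at 11.05 ± 4.64 RPKM in the double mutant and 9.15 ± 2.70 RPKM in N2. The next level in N2 was that of str-112, at 3.20 ± 1.54 RPKM in the double mutant and 7.64 ± 2.74 RPKM in N2. Neighbours in the N2 order did not differ beyond their spread there, since srh-212 followed at 6.88 ± 1.05 RPKM and srd-23 at 6.03 ± 0.744 RPKM.

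The other sri risers with 10 or more counts in every library were sri-70 and sri-62. Levels of sri-70, on chromosome V, were 13.9, 17.9 and 19.1 CPM in spr-5; met-2, against 1.26, 0.644 and 1.45 CPM in N2, for a fitted log2 fold change of 3.92 ± 0.32 (SE, adjusted p = 0.000118 in edgeR). Levels of sri-62, on chromosome II, were 8.99, 9.82 and 12.8 CPM in the double mutant and 1.48, 1.63 and 2.35 CPM in N2, for a fitted log2 fold change of 2.53 ± 0.27 (SE, adjusted p = 0.000421 in edgeR). In both genes the lowest mutant library was several times the highest N2 library. The record of sri-61, which lies next to sri-62, had 2.79, 1.88 and 2.42 CPM in the double mutant and 0.495, 0.297 and 0.250 CPM in N2 (2.76 ± 0.37, SE, adjusted p = 0.00152 in edgeR).

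The remaining sri risers were sri-36 and sri-7. Values of sri-36 were 1.14, 3.81 and 1.32 CPM in spr-5; met-2, against 0.330, 0.0991 and 0.150 CPM in N2, with a log2 fold change of 3.40 ± 0.67 (SE, adjusted p = 0.00869 in edgeR). Replicate 2 of the double mutant was far above the other mutant libraries, and without it the log2 fold change was 2.66. Values of sri-7 were 2.53, 2.81 and 2.46 CPM in the double mutant and 0.495, 0.892 and 0.501 CPM in N2, with a log2 fold change of 2.03 ± 0.33 (SE, adjusted p = 0.00357 in edgeR). Its groups did not overlap.

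Several risers were close to the detection limit in N2. The gene srh-286 had 27, 22 and 45 counts in spr-5; met-2, against 0, 1 and 2 counts in N2. With 94 counts against 3 its ratio was 27.9 (95% exact interval 9.25 to 138, counting error only), and the adjusted p was 0.00114 in edgeR. The gene srh-70 had 12, 17 and 18 counts in the double mutant against 0, 2 and 1 in N2, a ratio of 13.9 (95% exact interval 4.49 to 70.02) with an adjusted p of 0.00569 in edgeR. In str-225 there were 19, 21 and 38 counts in the double mutant, while N2 held 4 counts, all in replicate 2. Its log2 fold change was 3.99 ± 0.80 (SE, adjusted p = 0.00896 in edgeR), and the fitted value was 7.61 without that N2 library, a value that depends on the prior count.

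The other 5 risers changed less or at low level. Counts of srd-20 were 17, 19 and 23 in spr-5; met-2 and 1, 1 and 4 in N2, for a fitted log2 fold change of 3.08 ± 0.54 (SE, adjusted p = 0.00499 in edgeR) that was 3.96 without N2 replicate 3. Without the same library srh-286 was fitted at 5.45, against 4.63, and without N2 replicate 2 srh-70 at 4.51, against 3.68. Counts of srh-82 were 18, 12 and 21 in the double mutant and 3, 2 and 4 in N2 (2.29 ± 0.44, SE, adjusted p = 0.00742 in edgeR). These genes were above N2 in each mutant library.

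The risers srh-159, srh-16 and str-176 lost their call under some settings. Levels of srh-159 were 0.930, 1.05 and 0.961 CPM in spr-5; met-2, against 0.330, 0.297 and 0.351 CPM in N2, for a fitted log2 fold change of 1.57 ± 0.34 (SE, adjusted p = 0.0119 in edgeR, and 0.00777 to 0.0629 over its alternatives). Levels of srh-16 were 0.672, 0.827 and 0.996 CPM in the double mutant and 0.330, 0.149 and 0.351 CPM in N2 (1.59 ± 0.43, SE, adjusted p = 0.0308 in edgeR, and 0.0191 to 0.142 over its alternatives). DESeq2 did not call srh-16. The most abundant str gene to rise, str-176 on chromosome IV, had 9.51, 8.44 and 7.94 CPM in the double mutant and 5.11, 5.45 and 3.61 CPM in N2 (0.87 ± 0.22, SE, adjusted p = 0.0237 in edgeR, and 0.00363 to 0.0695 over its alternatives). The call of srh-159 was lost without N2 replicate 2 and without double-mutant replicate 2 or 3, that of srh-16 without any N2 library or double-mutant replicate 2 or 3, and that of str-176 without N2 replicate 3 or any double-mutant library.

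**Figure D2:**
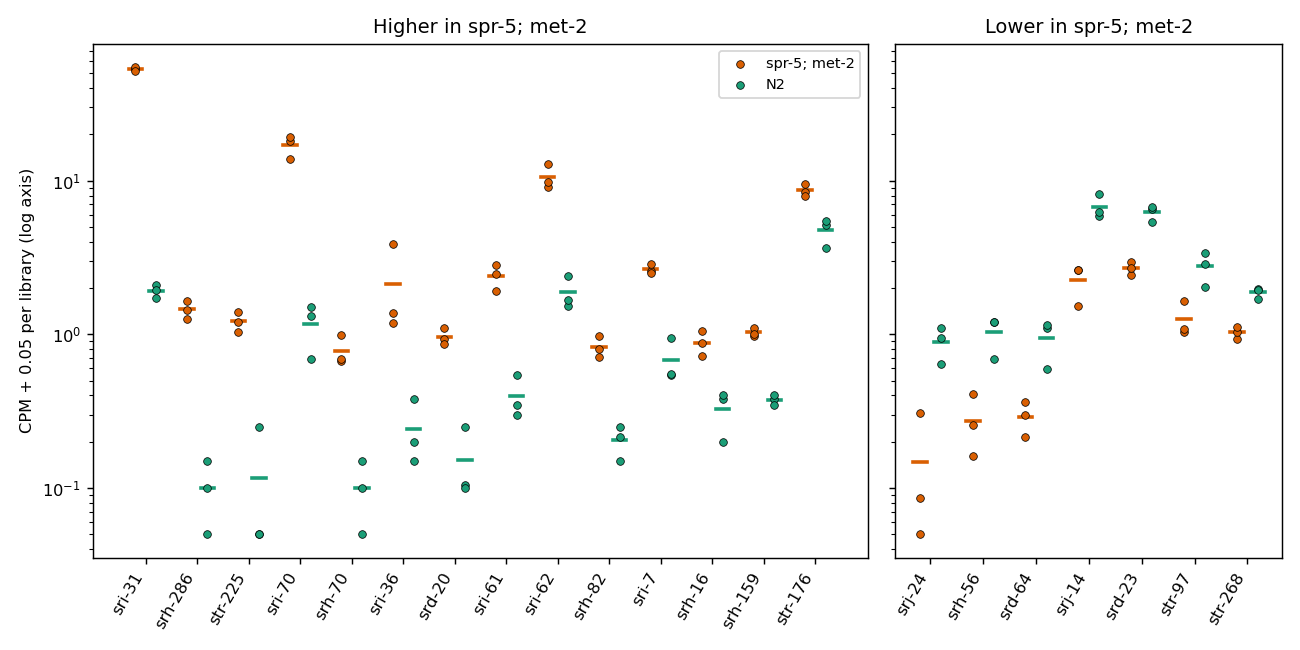
CPM + 0.05 per library (log axis) for the 14 members that rose and the 7 that fell, with spr-5; met-2 (orange) left of N2 (green), points for the 3 libraries and bars for their means. The groups do not overlap in any of these genes, the gap is widest in level for sri-31, and srj-24 is at 0 in 1 spr-5; met-2 library.

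The members that fell were fewer and changed by less, apart from srj-24. The best supported were srj-14 and srd-23. Levels of srj-14, on chromosome V, were 2.58, 1.49 and 2.56 CPM in spr-5; met-2, against 8.13, 5.80 and 6.21 CPM in N2, for a fitted log2 fold change of -1.59 ± 0.28 (SE, adjusted p = 0.00562 in edgeR). Levels of srd-23, on chromosome IV, were 2.89, 2.37 and 2.67 CPM in the double mutant and 6.49, 6.74 and 5.31 CPM in N2, for a fitted log2 fold change of -1.22 ± 0.22 (SE, adjusted p = 0.00538 in edgeR). Both kept their call in each of 15 alternatives.

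The other fallers lost their call when single libraries were left out. The gene srj-24 had 5, 0 and 1 counts in spr-5; met-2 and 19, 12 and 18 in N2, for a fitted log2 fold change of -3.10 ± 0.78 (SE, adjusted p = 0.0223 in edgeR), fitted at -4.96 without double-mutant replicate 1. Counts of srh-56 were 4, 2 and 10 in the double mutant against 21, 13 and 23 in N2 (-2.03 ± 0.49, SE, adjusted p = 0.0193 in edgeR). Counts of srd-64, on chromosome III, were 6, 3 and 7 in the double mutant against 19, 11 and 22 in N2 (-1.85 ± 0.45, SE, adjusted p = 0.0201 in edgeR). In all of these the highest mutant library stayed below the lowest N2 library in CPM.

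At higher levels, str-97 had 1.60, 0.993 and 1.03 CPM in spr-5; met-2, against 2.80, 1.98 and 3.36 CPM in N2 (-1.17 ± 0.33, SE, adjusted p = 0.0349 in edgeR). The call of str-97 was lost without N2 replicate 1 or 3 and without double-mutant replicate 2 or 3, and also with scaling to library size only. That of srj-24 was lost without N2 replicate 1 or 3 or double-mutant replicate 2 or 3, that of srh-56 without N2 replicate 3 or double-mutant replicate 1 or 2, and that of srd-64 without N2 replicate 3 or double-mutant replicate 2 or 3. The gene str-268 had 0.879, 0.993 and 1.07 CPM in the double mutant and 1.65, 1.93 and 1.90 CPM in N2 (-0.89 ± 0.27, SE, adjusted p = 0.0464 in edgeR). With the replicate block its adjusted p was 0.0537, and its call was also lost in DESeq2, with no count filter, with scaling to library size only and without any library but N2 replicate 1. Leaving out N2 replicate 3 or double-mutant replicate 2 left 2 fallers, and leaving out double-mutant replicate 3 left 3.

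Most members neither rose nor fell by the test. The 109 members without a call had log2 fold changes between -1.78 and 1.60 and a median SE of 0.42. In 17 of the 109 the unadjusted p was below 0.05. The groups did not overlap in 43 of the 130 tested members, 20 with spr-5; met-2 higher and 23 with it lower, or 22 of the 109 without a call. Among all tested records 43.6% did not overlap, 22.3% with the double mutant higher and 21.3% with it lower.

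Abundant members were among those without a call. The gene sri-40 had 19.5, 8.27 and 12.6 CPM in spr-5; met-2, against 14.1, 7.58 and 11.8 CPM in N2 (log2 fold change 0.27 ± 0.34, SE, adjusted p = 0.607 in edgeR). Replicates 1 of both groups were its highest and replicates 2 its lowest libraries. The gene srh-212 had 9.46, 7.998 and 8.79 CPM in the double mutant and 5.94, 7.58 and 8.01 CPM in N2 (0.29 ± 0.19, SE, adjusted p = 0.323 in edgeR). The gene srd-53 had 6.98, 16.8 and 14.02 CPM in the double mutant and 4.84, 4.95 and 9.56 CPM in N2 (0.97 ± 0.39, SE, adjusted p = 0.109 in edgeR), and it passed with the replicate block (adjusted p = 0.0268 in edgeR).

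The block also called 5 further members as lower, which are named here after their values were seen. They were str-112 (log2 fold change with the block -1.31, adjusted p = 0.00424 in edgeR), srj-19 (-1.34, adjusted p = 0.0256 in edgeR), srh-279 (-0.89, adjusted p = 0.0273 in edgeR), srh-27 (-1.87, adjusted p = 0.0331 in edgeR) and sri-26 (-1.07, adjusted p = 0.0492 in edgeR). Without the block srj-19 missed the threshold narrowly (adjusted p = 0.0528 in edgeR). The genes srj-19 and Y45G12C.1, a gene on the opposite strand that rose, overlap in the annotation, and so do sri-26 and sri-25 on the same strand. Counts of such records can share reads.

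In the authors' deposited table an adjusted p below 0.05 was given to 15 members with a higher level in spr-5; met-2 and to 8 with a lower one, beside 23.6% of all records with an adjusted p there. Of these 23 calls 19 were also made by the edgeR test. Beyond the edgeR calls, the authors' deposited table called srh-195 (log2 fold change 1.42), srd-53 (0.93), srj-19 (-1.17) and str-112 (-1.15), and it did not call srh-16 and str-268. The same 4 were also called by DESeq2 run on the counts and by edgeR with no count filter. The uncalled value of srh-195 rested on uneven libraries, with 1.24, 6.45 and 2.74 CPM in the double mutant and 1.26, 0.594 and 1.55 CPM in N2. Its gene overlaps math-37, a MATH domain gene on the same strand that rose by 2.24 on the log2 scale (adjusted p = 0.0108 in edgeR).

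By subfamily, 31.6% of tested sri genes and 9.26% of tested srh genes rose, beside 14.3% of all tested records. Of 19 tested sri genes 6 rose and 0 fell, yet 10 of the 19 had a log2 fold change below 0 and the median was -0.13. Of 54 srh genes 5 rose and 1 fell, with a median of 0.06, of 28 str genes 2 rose and 2 fell, with a median of -0.23, and of 17 srd genes 1 rose and 2 fell, with a median of -0.11. Of 7 srj genes 0 rose and 2 fell, 6 had a value below 0, and the median was -1.27. Among all tested records 11.7% were called as lower. Of the sri risers only sri-31, sri-70 and sri-62 had 10 or more counts in all libraries. The srh risers srh-286, srh-70, srh-82, srh-16 and srh-159 reached 10 counts in no N2 library, and srj-24 in no spr-5; met-2 library. Members of this kind passed the rule through the group where they were higher, which limits what these shares can show. Of the 4 srm genes and the single srn gene 0 passed in edgeR, DESeq2 or limma voom, and 0 had an unadjusted edgeR p below 0.05. Their log2 fold changes were 0.11 to 0.74 in the srm genes and -0.76 ± 0.45 (SE) in srn-1.

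**Figure D3:**
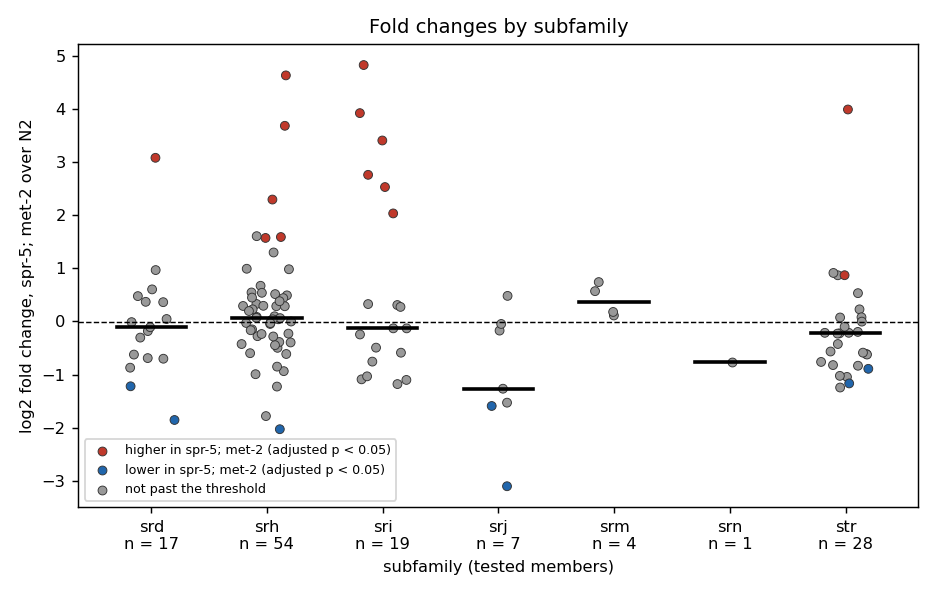
Log2 fold change of spr-5; met-2 over N2 for the tested members of each subfamily, with the edgeR call as colour, a bar at each subfamily's median and a dashed line at the median of all tested records (-0.01). In sri the 6 risers lie between 2.03 and 4.82 while the median is -0.13.

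Calls in both directions were found on chromosomes V and IV. On chromosome V, 8 of 83 tested members rose (9.64%) and 4 fell (4.82%), and on II 5 of 23 rose (21.7%) and 0 fell. Of all tested records 14.3% were called as higher and 11.7% as lower. The 5 on II were sri-31, sri-36, sri-61, sri-62 and srh-70, so this count largely repeats that of the sri genes. Only sri-31 and sri-62 of these had 10 or more counts in all libraries, and of the risers on V only sri-70 did. On II sri-36, sri-61 and srh-70 reached 10 counts in no N2 library, so they passed the rule through the group where they were higher. On IV 1 of 14 rose and 2 fell, on III 1 of 2 fell, and the 6 members on I and the 2 on X had no edgeR call. In the authors' deposited table and under the replicate block srd-53, on chromosome I, was called as higher.

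Large differences were seen between genes that lie side by side. In the order of the annotation sri-29, sri-30, sri-28 and sri-31 follow each other on chromosome II, and of the 3 that were tested only sri-31 passed in edgeR. The gene sri-29 had 2.02, 2.10 and 1.85 CPM in spr-5; met-2, against 1.81, 1.63 and 1.30 CPM in N2 (log2 fold change 0.33 ± 0.26, SE, adjusted p = 0.406 in edgeR). The gene sri-30 had 2.95, 3.09 and 2.46 CPM in the double mutant and 4.12, 3.62 and 5.01 CPM in N2 (-0.59 ± 0.24, SE, adjusted p = 0.108 in edgeR), and sri-28 had 14, 3 and 10 counts against 19, 10 and 4. On the other side of sri-31, lido-13 and lin-8 rose by 0.45 and 0.56 (log2 fold change, adjusted p of 0.0375 and 0.0413 in edgeR).

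In other places an immediate neighbour rose as well. Next to sri-36 the uncharacterised gene F33H12.7 rose by 5.11 (log2 fold change, adjusted p = 0.000347 in edgeR), with 4643 counts over the spr-5; met-2 libraries against 126 over those of N2. Next to sri-7 the F-box gene fbxa-135 rose by 4.39 (adjusted p = 0.000344 in edgeR), and next to srh-70 the homeobox gene ceh-99 by 3.36 (adjusted p = 0.00311 in edgeR). The gene sri-60, beside sri-61, had 6, 14 and 10 counts in the double mutant and 0, 2 and 0 counts in N2, and is no member since only 2 libraries reached 10.

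Over all tested members, 8 of the 14 risers had an adjacent gene that rose, counting sri-61 and sri-62 for each other, against 0 of the 7 fallers and 9 of the 109 members without a call. Among the 8 were also sri-31, beside lido-13 at 0.45, and str-225, which lies beside the glucuronosyltransferase-family gene ugt-64 at 1.77. Of the 8, str-225, srh-70, sri-36, sri-61 and srh-16 reached 10 counts in no N2 library and so passed the rule through the double mutant alone. An adjacent gene fell beside 2 of the 7 fallers, srj-24 and srh-56, beside 0 of the 14 risers and beside 8 of the 109 members without a call. These shares are a description with no test, because some neighbours had no tested record and adjacent members count each other. The share of all tested records with an adjacent gene that rose or fell was not computed. Of all tested records themselves, 14.3% were called as higher and 11.7% as lower. No riser or faller overlaps a protein-coding gene in the annotation, while 25 of the 109 members without a call do.

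**Figure D4:**
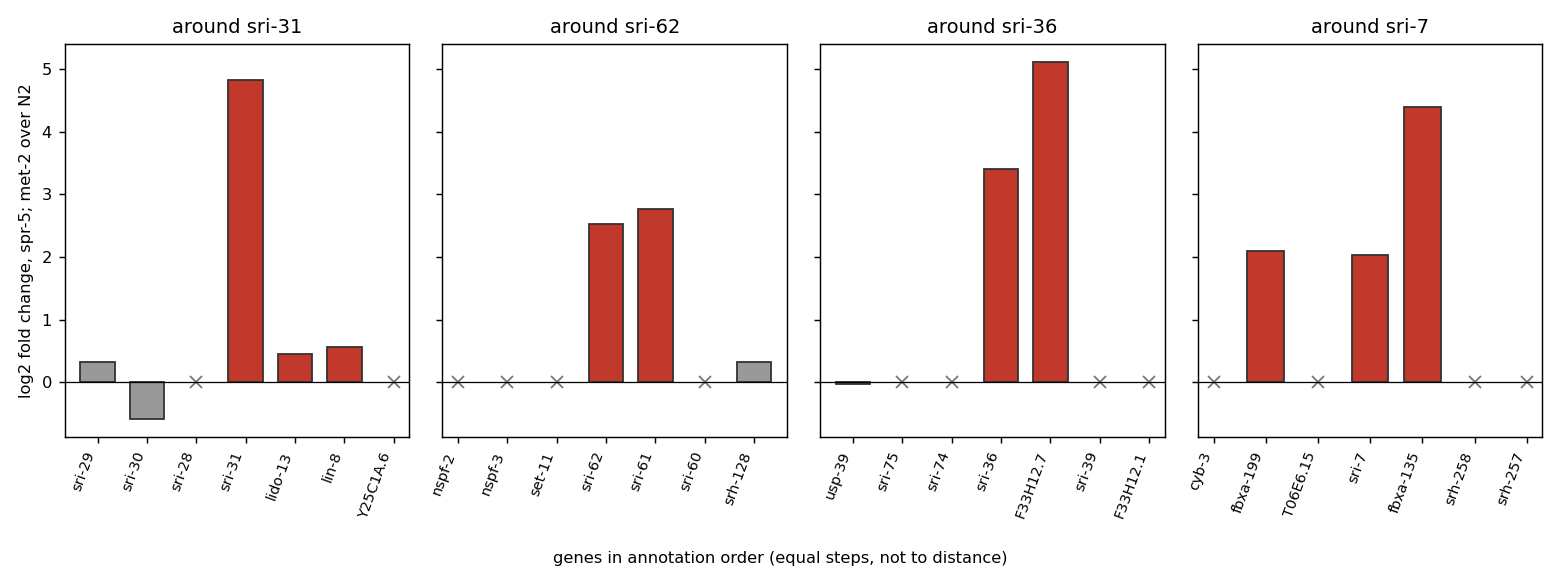
Log2 fold change of spr-5; met-2 over N2 for 4 sri risers and up to 3 genes on each side, in annotation order with equal steps. Red bars mark genes that rose (edgeR adjusted p below 0.05), grey bars tested genes without a call and crosses genes with no tested record, and sri-31 at 4.82 stands 2 places from sri-30 at -0.59 while sri-36 stands beside F33H12.7 at 5.11.

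The 10 receptors of the family listed here for a described site of expression, regulation or ligand had too few counts to be tested. Other members were not checked for described expression. The gene str-2, a marker of an AWC olfactory neuron, had 0, 0 and 1 counts in spr-5; met-2 and 3, 0 and 1 in N2, and str-1, a marker of the AWB neurons, had 0, 3 and 1 against 0, 0 and 1. Counts of str-3, expressed in the ASI neurons, were 6, 8 and 7 in the double mutant and 13, 8 and 7 in N2. Counts of srh-142, of the ADF neurons, were 7, 2 and 15 against 8, 8 and 5. Groups of these genes overlapped.

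Of the ADL receptors, srh-220 had 8, 2 and 8 counts in spr-5; met-2 and 0, 2 and 7 in N2. The other, srh-234, whose expression is known to depend on feeding, had 2, 1 and 1 against 1, 2 and 5. Counts of str-44, a receptor gene regulated by feeding state, were 5, 6 and 12 in the double mutant and 16, 9 and 9 in N2. Scaled to library size, its groups did not overlap, at 0.339 ± 0.0846 CPM in the double mutant and 0.592 ± 0.249 CPM in N2 (SD, n = 3 each). It was not tested, and groups did not overlap in 43.6% of all tested records. The receptor gene srd-1, linked to the sensing of a sex pheromone by males, had 13, 4 and 12 counts in the double mutant and 50, 10 and 8 in N2, so a single N2 library stood apart. Neither str-217 nor sri-14 had a count in any library. A listed 0 sets no limit on expression here, since genes used throughout a tissue, such as unc-18 of neurons and deb-1 of muscle, are also listed at 0 in every library.

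Listed genes for G proteins, channels and other signalling parts were mostly without a call. Of all tested records 14.3% were called as higher and 11.7% as lower, which is the background for this list and those below. Of 38 tested genes of sensory transduction, from G protein subunits to cyclic nucleotide-gated and TRP channels, 2 rose and 1 fell, with a median of -0.00. The G alpha gene gpa-9 had 27.1 ± 5.74 CPM in spr-5; met-2 and 4.38 ± 0.918 CPM in N2 (SD, n = 3 each), for a fitted log2 fold change of 2.63 ± 0.24 (SE, adjusted p = 0.000195 in edgeR). The G alpha gene gpa-16 rose by 1.51 ± 0.32 (SE, adjusted p = 0.0120 in edgeR), and the G gamma gene gpc-2 was at -0.82 ± 0.13 (SE, adjusted p = 0.00336 in edgeR). The channel subunit gene tax-4 had 5.89 ± 0.413 CPM in the double mutant and 5.92 ± 0.788 CPM in N2.

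Genes for receptor trafficking and cilia gave 3 risers and 1 faller of 34 tested, with a median of 0.12. The risers were che-14 at 1.65 ± 0.21, the clathrin adaptor gene unc-101 at 0.77 ± 0.20 and the intraflagellar transport gene osm-6 at 0.64 ± 0.19, and the faller was dyf-11, also of intraflagellar transport, at -0.59 ± 0.16 (log2 fold change, SE). Of 21 tested regulators of sensory neuron identity 1 rose, tir-1, which acts in AWC asymmetry, at 1.35 ± 0.36 (SE, adjusted p = 0.0291 in edgeR), and 0 fell, with a median of -0.08. Of the listed regulators, unc-30, unc-42, egl-44 and hlh-2 had a listed count of 0 in every library.

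Marker genes of tissues were read beside these results. Of 16 tested pan-neuronal genes 1 rose, ric-19 at 0.43, and 1 fell, unc-10 at -0.64, and the list summed to 2313 to 2734 CPM in spr-5; met-2 and 2489 to 3343 CPM in N2. Most of that sum came from egl-21 and ida-1, both without a call. They averaged 1091 and 938 CPM in the double mutant and 1361 and 1092 CPM in N2. The cilia list summed to 457 to 519 CPM in the double mutant and 477 to 496 CPM in N2. Of the neuronal markers unc-18, unc-11, unc-31, rgef-1 and ehs-1 had a listed count of 0 in every library. Germline genes moved with the group, with 18 of 20 tested higher, 0 lower, and sums of 1983 to 2098 CPM in the double mutant against 162 to 225.9 CPM in N2. Among them prg-1 stood at 636 ± 11.7 CPM in the double mutant and 27.6 ± 2.79 CPM in N2 (SD, n = 3 each), while pgl-1 and him-3 had a listed count of 0. The part of germline transcripts in the receptor results was not tested.

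Markers of other tissues moved in part. Of 15 tested intestinal genes 4 rose and 6 fell, with sums of 11233 to 13506 CPM in spr-5; met-2 and 14453 to 17781 CPM in N2. Of 11 body wall muscle genes 0 rose and 4 fell, with sums of 19772 to 22581 CPM in the double mutant and 23683 to 33839 CPM in N2. Most of the muscle sum came from unc-54 and mlc-2. They averaged 9199 and 4004 CPM in the double mutant and 9674 and 7004 CPM in N2. Of 11 hypodermal genes 1 rose and 0 fell, and the list summed to 94.7, 488 and 186 CPM in replicates 1, 2 and 3 of the double mutant and to 30.8, 340 and 62.9 CPM in those of N2. Replicates 2 were the highest of both groups in that list. For sri-36, replicate 2 was the highest of the double mutant, with 22, 69 and 37 counts in replicates 1, 2 and 3. Its N2 libraries held 6, 2 and 3 counts, too few to rank. The part of these differences in the receptor results was not tested.

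The other chemoreceptor superfamilies, chosen by the same rule, showed calls in both directions. In the Sra superfamily 3 of 47 tested records rose and 3 fell, with a median log2 fold change of -0.11. In the Srg superfamily 7 of 82 rose and 4 fell, with a median of -0.10. In the solo families 3 of 60 rose and 5 fell, with a median of -0.11. The shares called as higher were 6.38%, 8.54% and 5.0% in Sra, Srg and solo families, beside 14.3% of all tested records. The shares called as lower were 6.38%, 4.88% and 8.33%, beside 11.7%. The difference between these families and the Str superfamily was not tested.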

How the data were processed

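RNA-seq libraries of 3 spr-5; met-2 and 3 N2 samples, grouped by title, were analysed. The authors deposited raw counts for each RefSeq transcript. The submitters' processing notes list FastQC, Trimmomatic, featureCounts, DESeq2 2.11.40.2 and build ce10, and the column headers name HISAT2 and L4440. How strand and shared reads were treated is not given, so close paralogs and overlapping genes are uncertain. The authors' own comparison holds, per the file headers, a base mean (a normalized signal), the log2 fold change, 2 scores (its standard error and the Wald statistic), the p-value and its adjusted form.

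Records were named by RefSeq transcript identifiers (46074 of 50832); the 4758 without a name stayed in all fits. Exonic lengths, which all 137 members had, and gene order came from WBcel235 annotations, a different build, so no coordinates are given. Records were kept by filterByExpr (minimum count 10, minimum total 15), scaled by TMM (factors 1.06 to 1.11 for spr-5; met-2 and 0.827 to 0.999 for N2) and tested two-sided with edgeR 4.0.16 in R 4.3.3, with Benjamini-Hochberg adjustment. SE is the log2 fold change divided by the square root of F. The fit was tested on simulated data. Replicates of a group differed by more than sampling noise. Same-numbered libraries deviated together (r = 0.456, 0.356 and 0.186 for numbers 1, 2 and 3 over 14557 records). Unlike numbers gave r from -0.372 to 0.0903. The numbers were taken as pairs in an alternative fit with a block only, and the main fit had no block.

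Named genes are the 12 largest rises and 12 largest falls past the threshold without overlap (7 falls existed), the 6 most abundant members, the 3 records on each side of the count limit, described receptors, and up to 4 genes per list by adjusted p; the 2 risers outside this rule, srh-159 and str-176 as a riser, are given for completeness. Members and lists were chosen with earlier results of these data known. Alternatives were other scalings, filters and thresholds, DESeq2 1.42.0, limma voom (limma 3.58.1), the block, records summed per gene and each library left out. The values of 1 neighbouring gene are not reported here.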

Additional observations from a re-analysis of the deposited data

How the results depend on the processing

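Of 352 values of 24 named members under alternative settings, 310 kept their direction and their side of the threshold, 37 kept the direction but lost the call, 4 gained one, and 1 reversed: sri-40, which has no call, was at -0.089 without spr-5; met-2 replicate 1, and at up to 0.53 with another library left out. With library size only, the median of all records moved to 0.21 and that of the members to 0.19, the log2 ratio of their summed CPM was 0.65, and 827 of all records were called as lower. A filter of 1 CPM in 3 libraries kept 66 members and called 9 as higher and 4 as lower, beside 14.9% and 12.8% of all records. The replicate block, taken as a pairing from the data, called 11 members as lower, beside 16.3% of all records, and otherwise changed only the member calls named beside the results. Leaving out each library in turn gave 11 to 15 members called as higher, 2 to 6 as lower, and 800 to 1803 of all records called as lower. An adjusted p below 0.01 left 2 members and 665 of all records as lower and 1214 of all records as higher, and a 2-fold minimum left 696 of all records as lower. In choices made after the data were seen, without sri-31 the log2 ratio of summed CPM was 0.13, and with 10 counts in all libraries 4 members were called in each direction. Depth is a limit for the family, in which 76 of 137 members averaged below 1 CPM.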
